A study of Mus musculus with 7 samples.

Results

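Glycolysis is the cytosolic pathway that splits glucose into pyruvate, and lactate dehydrogenase then turns pyruvate into lactate. Hexokinase and phosphofructokinase catalyse early, tightly regulated steps, while the enzymes of the middle and end of the pathway are among the most abundant proteins of many cells. In the developing kidney, nephron progenitors are known to rely on glycolysis, and mature proximal tubule cells burn other fuels and make glucose instead. The genes described here are 10 enzymes of the pathway, chosen by name: Hk1, Hk2, Gpi1, Pfkl, Pfkp, Aldoa, Pgk1, Eno1, Pkm and Ldha. All 10 names were found among the 16167 genes of the deposited table, in 11 rows, because Aldoa stands there under 2 identifiers.

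The study sequenced total RNA of 7 kidney samples taken from mouse embryos at E15.5. Mutants (n = 4) are Six2-Cre; Irx3/5(loxP/loxP), with floxed Irx3 and Irx5 on both chromosomes, and controls (n = 3) are littermates labelled WT and titled Irx3/5(loxP/+), with the floxed allele on 1 chromosome. The targeted genes are homeobox transcription factors of the Iroquois family, and Six2-Cre is active in nephron progenitors and their descendants, so cells of the ureteric tree, stroma and vessels keep the genes. The control labels name no Cre, so the Cre transgene and the deletion cannot be told apart. Kidneys were taken as pairs, but the number of embryos behind a library is not given in the sources used here, and the p-values cover the spread of these libraries only. Values are FPKM, fragments scaled by gene length and library size, which allows levels of different genes to be compared. Each difference is the mutant mean less the control mean of log2(FPKM + 1), and it understates changes of genes with low values. Genes with a limma Benjamini-Hochberg adjusted p under 0.05 over all 13466 genes tested were called changed.

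Depth, recovered from the authors' values, was 45539155 to 53497462 reads in mutant libraries and 40511920 to 69028943 reads in control libraries. Irx3 stood at 6.63, 3.98, 5.57 and 6.75 FPKM in mutants 1 to 4, against 14.7, 14.2 and 12.7 FPKM in controls 1 to 3, and fell (log2 fold change -1.16, SE 0.15; limma adjusted p = 0.0145). That call was lost without control 1 (limma adjusted p = 0.0860) and without control 2 (limma adjusted p = 0.105). Irx5 was at 2.05, 0.895, 1.13 and 2.03 FPKM in mutants and 1.36, 1.55 and 1.59 FPKM in controls (log2 difference -0.01, SE 0.17; limma adjusted p = 0.989), so its gene-level value does not separate the genotypes; which exons are floxed is not given in the sources used here. No kidney marker was at 0. The 8 nephron progenitor markers summed to 126 to 150 FPKM in mutants and 192 to 201 FPKM in controls, and 4 of them fell and 1 rose by limma. The 8 proximal tubule markers summed to 26.2 to 57.1 FPKM in mutants and 78.7 to 95.01 FPKM in controls, and 2 of the 7 tested fell. The 6 loop and distal tubule markers summed to 16.6 to 29.7 FPKM in mutants and 42.9 to 52.5 FPKM in controls, and 3 of the 5 tested fell. Other lists had higher sums in mutants: ureteric bud and collecting duct (7 markers, 1 rose) at 156 to 170.0 FPKM in mutants and 124 to 148 FPKM in controls, endothelium (6 markers, 0 rose) at 133 to 143 FPKM in mutants and 121 to 130 FPKM in controls, and immune cells (6 markers, 0 rose) at 25.4 to 29.5 FPKM in mutants and 22.4 to 22.8 FPKM in controls. Stroma (7 markers, 1 rose) overlapped, at 335 to 443 FPKM in mutants and 261 to 345 FPKM in controls. The part of these cell types in the enzyme levels was not tested. In whole kidneys, fewer cells of a type and less RNA per cell cannot be told apart. Skeletal muscle markers, of which 5 of 8 are listed and none is at 0 in any library, summed to 75.2 FPKM in control 1 and to 9.32 to 10.4 FPKM in the other 6 libraries. Muscle is a strongly glycolytic tissue, and the part of these reads in the values below was not tested.

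The promoters of 4 genes are shown because their genes carry the patterns described below. Ldha and Pgk1 had nearly the same profile over the libraries, and Pfkl and Pfkp, isoenzymes of the same step, did not. The sequences are from RefSeq on GRCm38.p6, which is not the build of the expression table, and span 250 bases before to 50 after a start site. Capitals mark ACGTG or GCGTG on either strand, the core letters of hypoxia response elements; neighbouring matches can overlap, as in CACGTG, which holds ACGTG on both strands.
Ldha (chr7:46845554-46845853, + strand): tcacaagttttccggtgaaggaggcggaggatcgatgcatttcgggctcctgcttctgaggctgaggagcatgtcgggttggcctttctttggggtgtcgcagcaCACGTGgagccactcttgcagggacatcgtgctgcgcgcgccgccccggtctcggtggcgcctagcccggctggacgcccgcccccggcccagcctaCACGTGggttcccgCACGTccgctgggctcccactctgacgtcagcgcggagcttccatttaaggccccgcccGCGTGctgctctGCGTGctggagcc
Pgk1 (chrX:106186850-106187149, + strand): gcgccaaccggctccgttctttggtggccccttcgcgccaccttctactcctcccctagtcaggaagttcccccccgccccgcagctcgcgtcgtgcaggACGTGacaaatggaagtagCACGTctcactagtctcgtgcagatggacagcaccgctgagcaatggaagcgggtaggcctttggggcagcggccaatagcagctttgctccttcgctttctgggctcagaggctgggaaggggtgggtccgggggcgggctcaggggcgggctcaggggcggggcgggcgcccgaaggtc
Pfkl (chr10:78009758-78010057, - strand): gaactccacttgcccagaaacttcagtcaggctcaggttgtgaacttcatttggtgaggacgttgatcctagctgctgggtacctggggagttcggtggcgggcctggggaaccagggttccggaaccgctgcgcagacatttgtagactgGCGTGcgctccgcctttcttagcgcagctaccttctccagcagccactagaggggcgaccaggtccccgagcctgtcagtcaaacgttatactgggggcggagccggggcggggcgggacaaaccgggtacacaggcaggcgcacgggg
Pfkp (chr13:6648722-6649021, - strand): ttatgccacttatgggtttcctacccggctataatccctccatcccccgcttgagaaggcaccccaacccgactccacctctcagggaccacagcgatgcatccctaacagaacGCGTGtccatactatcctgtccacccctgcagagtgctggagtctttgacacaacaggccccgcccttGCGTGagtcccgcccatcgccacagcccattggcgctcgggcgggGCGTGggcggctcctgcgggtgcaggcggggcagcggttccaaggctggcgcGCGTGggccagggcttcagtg

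The Ldha window shown holds 5 separate capital stretches, the Pgk1 window 2, the Pfkl window 1 and the Pfkp window 4. Another Ldha window, not shown, holds 2. The Gpi1 window holds 0, and the Aldoa windows hold 1, 1 and 0. Whether such matches go with a shared profile was not tested. All 10 enzymes matched the promoter table, with 17 windows in all. ACGTG or GCGTG was found in 13 of these windows and for 9 of the 10 genes, Gpi1 being the exception. Of all 32841 windows, 43.8% hold it, which is a share of windows and not of genes. Both ACGTG and GCGTG hold a C followed by a G, and the 17 windows were 51.3% to 69% G and C. The part of base content in these shares was not tested. Some windows of the same gene overlap, as for Aldoa and Eno1, so a match can be counted more than once. ACANNTGT, letters bound by Iroquois proteins in Drosophila, was found on either strand in 2 windows, those of Gpi1 and Pfkl, against 7.37% of all windows. A match is a match of letters and not a measured site.

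Of the 10 core enzymes, none passed the test for a change in the mutant kidneys. By limma 0 rose and 0 fell, where 1.53% of all genes tested were called, 0.475% higher and 1.05% lower. Of the 10, 1 had an unadjusted limma p under 0.05, against 13.7% of all genes tested. By limma-voom on the recovered counts 0 were called, against 1.85% of all genes tested. The authors' deposited table calls 0 of them, and 5.49% of all its genes with a p. The median log2 difference of the 10 was 0.02, against -0.0020 over all genes tested, and the median of its absolute size was 0.03, against 0.08 over all genes tested. The 95% intervals of all 10 differences lay between -0.38 and 0.39 on the log2 scale. The median standard deviation left within groups was 0.11 for the 10 enzymes and 0.12 over all genes tested.

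**Figure D1:**
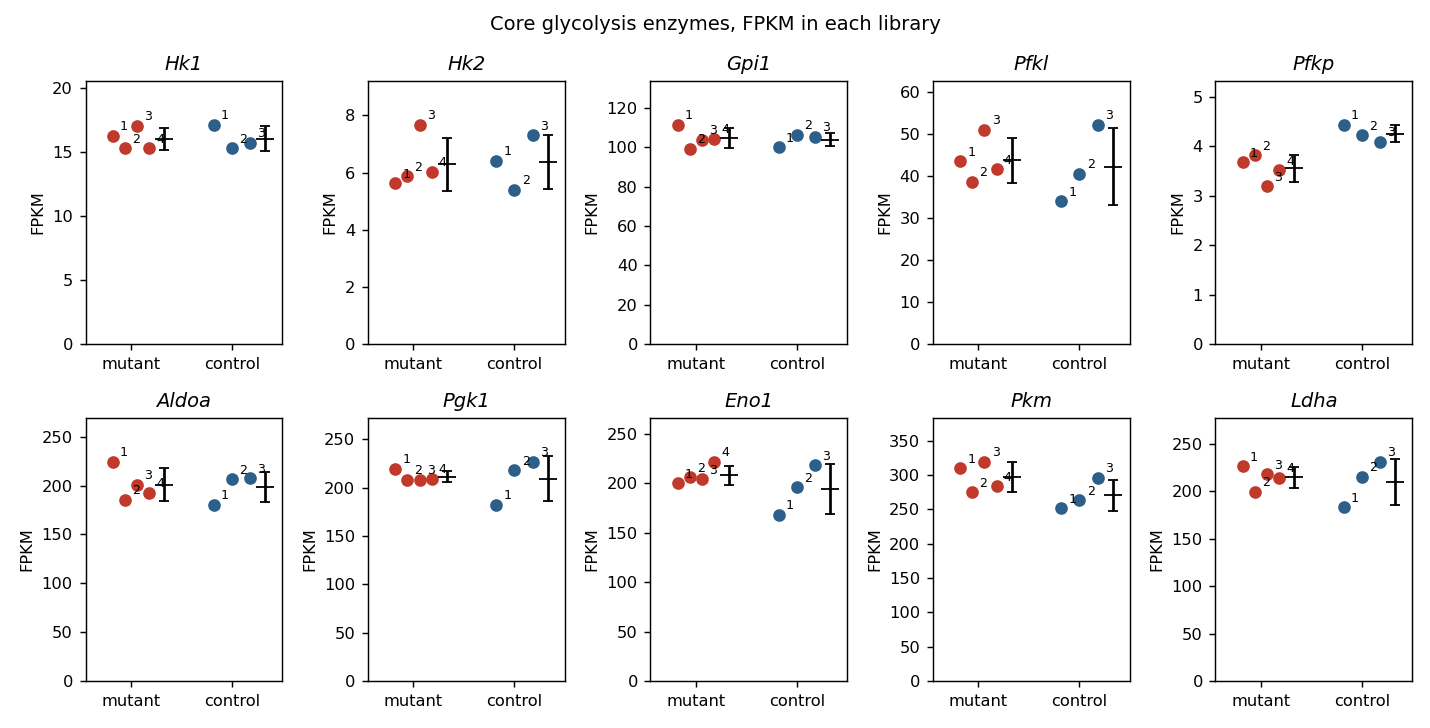
FPKM (vertical axis, from 0) of the 10 core enzymes in each library, numbered by replicate, for mutants (red) and controls (blue); the black bar is the mean and SD of the group (n = 4 mutants, n = 3 controls). The groups overlap for 9 of the enzymes, and for Pfkp all 4 mutants lie below all 3 controls.

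Hexokinases trap glucose in the cell by phosphorylating it. Hk1, the widely expressed form (ENSMUSG00000037012.19), was at 16.3, 15.3, 17.1 and 15.3 FPKM in mutants 1 to 4 and at 17.1, 15.3 and 15.7 FPKM in controls 1 to 3. The groups covered the same range, and the log2 difference was -0.0053 (SE 0.07; 95% interval -0.16 to 0.15; limma adjusted p = 0.991). Hk2, the form induced by insulin and hypoxia (ENSMUSG00000000628.11), was at 5.63, 5.87, 7.67 and 6.03 FPKM in mutants and at 6.42, 5.41 and 7.31 FPKM in controls. Mutant 3 and control 3 were the highest of their groups for Hk2, and its log2 difference was -0.02 (SE 0.12; 95% interval -0.29 to 0.25; limma adjusted p = 0.983).

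Gpi1, glucose phosphate isomerase (ENSMUSG00000036427.6), was at 111, 99.2, 104 and 104 FPKM in mutants and at 100.01, 106 and 105 FPKM in controls. It had the narrowest interval of the 10 enzymes, with a log2 difference of 0.01 (95% interval -0.14 to 0.16; limma adjusted p = 0.977).

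Phosphofructokinase adds the second phosphate and commits the sugar to glycolysis. Pfkl, the liver form (ENSMUSG00000020277.11), was at 43.6, 38.7, 51.0 and 41.6 FPKM in mutants and at 34.0, 40.5 and 52.2 FPKM in controls. It had the widest interval of the core enzymes, with control 1 the lowest and control 3 the highest of all 7 libraries, and its log2 difference was 0.06 (SE 0.14; 95% interval -0.26 to 0.39; limma adjusted p = 0.929). Pfkp, the platelet form (ENSMUSG00000021196.15), was at 3.67, 3.82, 3.19 and 3.52 FPKM in mutants and at 4.43, 4.22 and 4.09 FPKM in controls. All mutants were below all controls, on 682 to 1436 reads per library. The mean of the mutants stood at -16.4% relative to that of the controls, with a log2 difference of -0.21 (SE 0.08; 95% interval -0.38 to -0.03) that did not pass (limma unadjusted p = 0.0253, adjusted p = 0.264). In the authors' deposited table the log2 fold change was -0.26 with an adjusted p of 0.150, and over all 16 alternatives that tested it the adjusted p was 0.0620 to 0.594. Pfkp was the 1 core enzyme of 10 whose groups did not overlap; 14.5% of all genes tested had groups that did not, 8.61% with the mutants lower.

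Aldolase splits the sugar into a pair of triose phosphates. Aldoa (ENSMUSG00000030695.17) was at 225, 185, 201 and 193 FPKM in mutants and at 181, 206 and 208 FPKM in controls, with a log2 difference of 0.02 (SE 0.09; 95% interval -0.18 to 0.22; limma adjusted p = 0.969). The highest library was mutant 1 and the lowest was control 1. The second Aldoa identifier (ENSMUSG00000114515.3), which GENCODE M21 annotates upstream of the first on the same strand, was at 2.37 to 4.02 FPKM in mutants and 2.47 to 3.44 FPKM in controls. Its log2 difference was 0.03 (limma adjusted p = 0.967), and it is left out of the counts above.

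The later enzymes among the 10, Pgk1, Eno1, Pkm and Ldha, stood between 168 and 320 FPKM in all libraries. Pgk1, phosphoglycerate kinase (ENSMUSG00000062070.13), was at 219.7, 208, 208 and 209 FPKM in mutants and at 183, 218 and 227 FPKM in controls, with a log2 difference of 0.02 (SE 0.09; limma adjusted p = 0.965). Control 1 was below all other libraries and control 3 above them. Eno1, enolase (ENSMUSG00000063524.14), was at 200.02, 206, 204 and 222 FPKM in mutants and at 168, 196 and 218 FPKM in controls, with a log2 difference of 0.11 (SE 0.09; 95% interval -0.11 to 0.32; limma adjusted p = 0.733).

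Pkm encodes the muscle and embryonic forms of pyruvate kinase by alternative splicing, which a gene-level value does not separate. Pkm (ENSMUSG00000032294.18) was at 310.5, 275, 320 and 284 FPKM in mutants and at 252, 263 and 296 FPKM in controls. This was the largest positive difference among the 10, a mean 9.91% higher in mutants and a log2 difference of 0.14 (SE 0.09; 95% interval -0.06 to 0.34; limma adjusted p = 0.596), and the groups overlapped. Ldha, the lactate dehydrogenase subunit typical of glycolytic tissue (ENSMUSG00000063229.16), was at 227, 199.9, 218 and 215 FPKM in mutants and at 184, 216 and 232 FPKM in controls, with a log2 difference of 0.04 (SE 0.09; 95% interval -0.17 to 0.25; limma adjusted p = 0.934). Processed copies of Aldoa, Pgk1, Eno1 and Ldha exist in the mouse genome, and reads could be split between them and these genes.

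**Figure D2:**
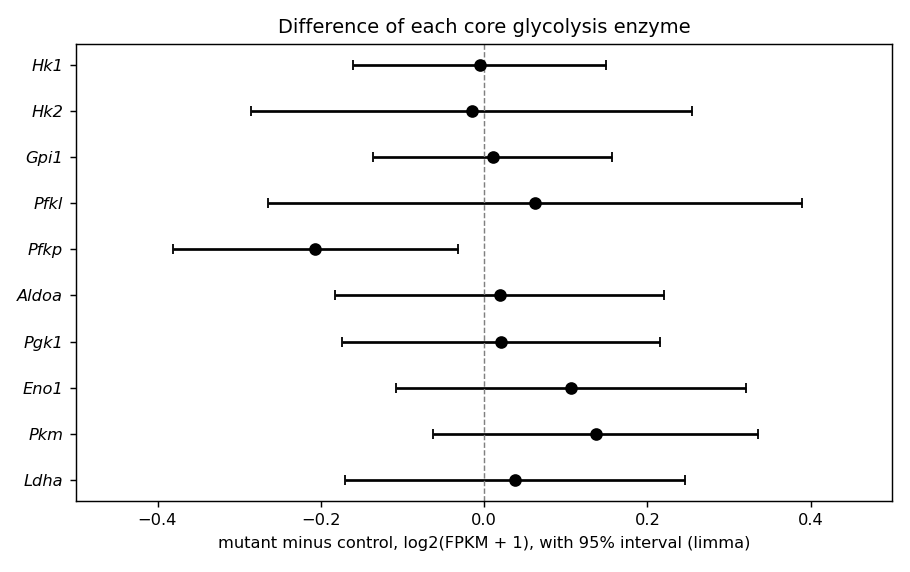
Mutant minus control difference of each core enzyme on the log2(FPKM + 1) scale (horizontal axis), with limma's 95% interval (n = 4 mutants, n = 3 controls). All intervals lie between -0.38 and 0.39, and that of Pfkp alone leaves out 0 before adjustment for the number of genes.

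In level, the 10 enzymes formed a ladder, given here from the top. Pkm was highest, at 297 ± 21.3 FPKM in mutants and 270.5 ± 23.0 FPKM in controls (SD, n = 4 and 3). Ldha, Pgk1, Eno1 and Aldoa followed with means of 201 to 215 FPKM in mutants and 194 to 210.2 FPKM in controls, and their ranges overlapped, so their order is not set. Gpi1 lay below them at 105 ± 4.99 FPKM in mutants and 104 ± 3.39 FPKM in controls. Pfkl came next at 43.7 ± 5.26 FPKM in mutants and 42.2 ± 9.19 FPKM in controls, then Hk1 at 16.0 ± 0.859 FPKM in mutants and 16.1 ± 0.948 FPKM in controls. Hk2 averaged 6.30 ± 0.927 FPKM in mutants and 6.38 ± 0.949 FPKM in controls, and Pfkp 3.55 ± 0.269 FPKM in mutants and 4.25 ± 0.172 FPKM in controls. The ranges of Gpi1 and of the 4 enzymes below it did not touch each other. The 5 highest enzymes lay at percentiles 98.4 to 98.99 of the genes tested, and Pfkp at percentile 24.7. Together the 10 summed to 1307 ± 54.2 FPKM in mutants and 1255 ± 119 FPKM in controls. The triose steps outside the 10 were at 284 ± 10.3 FPKM in mutants and 276 ± 21.5 FPKM in controls for Tpi1 (triose phosphate isomerase) and at 678 ± 20.9 FPKM in mutants and 617 ± 50.4 FPKM in controls for Gapdh.

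The mean profile of the enzymes differed more among the controls than among the mutants. Control 1 was the lowest of all 7 libraries for 6 of the 10 enzymes, and control 3 the highest control for 7. The sum of the 10 was 1362, 1237, 1335 and 1294 FPKM in mutants 1 to 4 and 1129, 1271 and 1366 FPKM in controls 1 to 3. Without control 1, the sign of 6 differences turned, those of Hk1, Gpi1, Pfkl, Aldoa, Pgk1 and Ldha, with log2 values of 0.04, -0.02, -0.08, -0.05, -0.07 and -0.06; Eno1 then stood at 0.0070 and Pkm at 0.09. The number called was 0 in each of the 7 omissions. Control 1 is also the library with the high muscle markers. Erythroid markers (7 of 8 listed) summed to 6220, 4482.5, 3546 and 4455 FPKM in mutants 1 to 4. In controls 1 to 3 the erythroid markers summed to 2998, 5982 and 3290 FPKM, so control 1 was lowest and control 3 next. Neuron and glia markers (5 of 8 listed) were highest in control 1, at 19.6 FPKM, against 16.95 FPKM or less elsewhere. The part of muscle, erythroid, neuron and glia reads in the enzyme levels was not tested.

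As a description over the 7 libraries, 28 of the 45 pairs of core enzymes had a Pearson r above 0, with a median of 0.36. Gpi1 and Aldoa had an r of 0.96. Pgk1 and Ldha, the first pair of promoters shown above, had an r of 0.93, against -0.54 for Pfkl and Pfkp. Pfkp had an r below 0 with each of the other 9 enzymes, down to -0.81 with Pkm, and Hk1 with 6 of them. All values of a library share its depth and dissection, and no p is given. The 5 other genes most like the mean profile of the 10 were Gm6421 (r = 0.997), Mta1, a chromatin remodelling subunit (0.9897), Gm4332 (0.989), 1110038F14Rik (0.986) and Eef1g, a translation elongation factor subunit (0.982), each over 7 libraries. Eef1g was at 470, 409, 460 and 421 FPKM in mutants and at 364, 416 and 497 FPKM in controls, low in control 1 and high in control 3 as well. None of these 5 passed the test (limma adjusted p from 0.917 to 0.999).

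**Figure D3:**
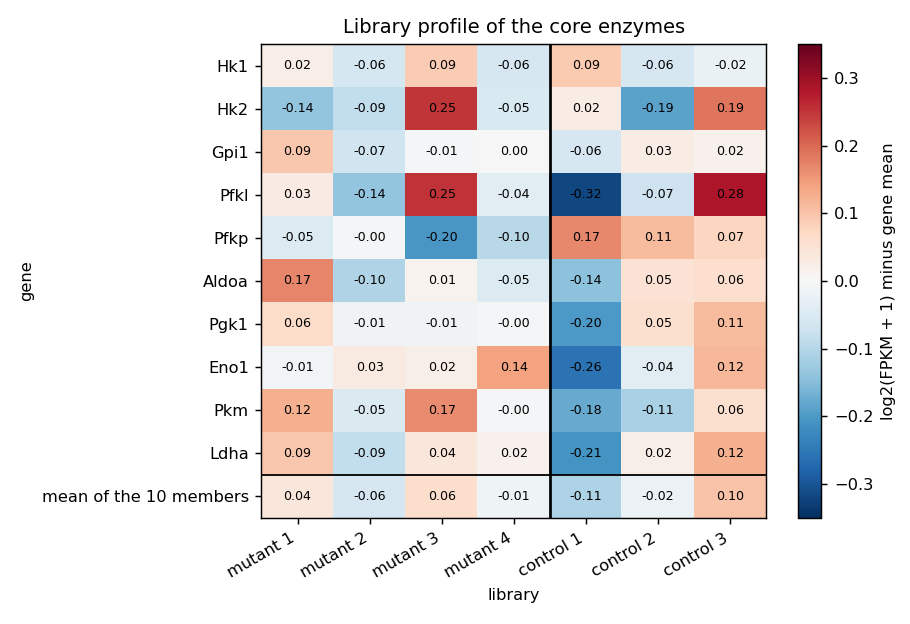
Each core enzyme's log2(FPKM + 1) minus its mean over the 7 libraries (colour and number), with mutants left of the line and controls right of it; the last row is the mean of the 10. Control 1 is low for most enzymes (mean -0.11) and control 3 high (mean 0.10), while the 4 mutants lie between -0.06 and 0.06.

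For hexokinase, phosphofructokinase, aldolase and lactate dehydrogenase, isoenzymes were compared within libraries as log2 ratios of FPKM, with p adjusted over the 6 ratios tested; the smallest p that 35 splits can give is 0.0286. Of the hexokinase FPKM, Hk1 made up 61.3% ± 1.46 in mutants and 62.4% ± 3.56 in controls and Hk2 24.0% ± 2.07 in mutants and 24.6% ± 2.18 in controls (SD, n = 4 and 3). The Hk2 to Hk1 ratio differed by -0.01 on the log2 scale (SE 0.14; exact permutation p = 0.914, adjusted p = 0.914). Pfkl made up 60.8% ± 2.72 of the phosphofructokinase FPKM in mutants and 59.2% ± 5.37 in controls, Pfkm, the muscle form, 34.2% ± 2.08 in mutants and 34.7% ± 4.50 in controls, and Pfkp 4.99% ± 0.701 in mutants and 6.08% ± 0.993 in controls. The Pfkp to Pfkl ratio differed by -0.32 (SE 0.25; exact permutation p = 0.286, adjusted p = 0.571) and the Pfkm to Pfkl ratio by -0.06 (SE 0.20; exact permutation p = 0.771, adjusted p = 0.914).

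Ldhb, the lactate dehydrogenase subunit of oxidative tissue, was at 212, 187, 155 and 185 FPKM in mutants and at 197, 209 and 216 FPKM in controls. It made up 46.1% ± 3.22 of the lactate dehydrogenase FPKM in mutants and 49.8% ± 1.84 in controls (SD, n = 4 and 3), with overlap. The Ldhb to Ldha ratio differed by -0.21 (SE 0.11; exact permutation p = 0.171, adjusted p = 0.514). Aldoc, the brain form of aldolase, was at 0.537%, 0.549%, 0.560% and 0.307% of the Aldoa FPKM in mutants 1 to 4 and at 0.558%, 0.666% and 0.536% in controls 1 to 3, with overlap (log2 difference of its ratio to Aldoa -0.30, SE 0.23; exact permutation p = 0.486, adjusted p = 0.729). These tests over 4 and 3 libraries do not show that the ratios are alike.

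**Figure D4:**
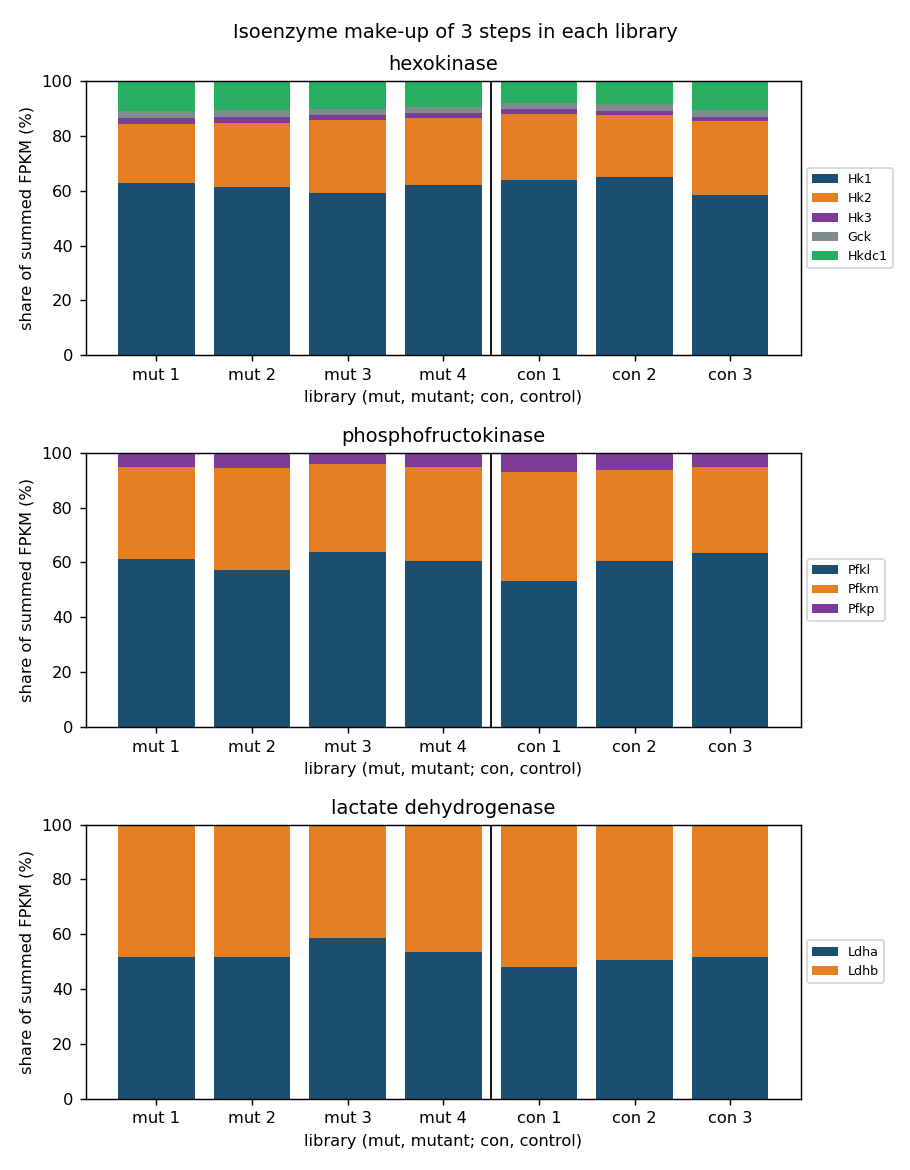
Share of each isoenzyme in the summed FPKM of its step (vertical axis, percent) in each library, mutants left and controls right of the line, for hexokinase, phosphofructokinase and lactate dehydrogenase. The groups overlap for Hk1 (61.3% in mutants and 62.4% in controls on average), Pfkl (60.8% in mutants and 59.2% in controls) and Ldha (53.9% in mutants and 50.2% in controls).

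Among 86 tested genes of 8 lists around the pathway, 2 changed (2.33%, against the 1.53% over all genes tested), both lower. Of the other glycolysis enzymes, 1 of 14 fell and 13 did not pass, with a median log2 difference of -0.10. The one that fell was Pgam2, the muscle form of phosphoglycerate mutase, at 2.16, 1.09, 0.724 and 1.58 FPKM in mutants and at 5.79, 4.16 and 3.48 FPKM in controls. All mutants were below all controls (log2 fold change -1.21, SE 0.22; limma adjusted p = 0.0434). Pgam1, the main form of that enzyme, was at 83.0 ± 7.95 FPKM in mutants and 87.3 ± 8.73 FPKM in controls, so Pgam2 was 1.63% ± 0.638 of the summed mutase FPKM in mutants and 4.94% ± 1.63 in controls (SD, n = 4 and 3). Without control 1, the library with the high muscle markers, the Pgam2 log2 difference was -1.04 and did not pass (limma adjusted p = 0.159). It also missed the threshold without any other library except mutant 1 (limma adjusted p = 0.0566 to 0.203). The Pgam2 call was lost with a pseudocount of 0.1 too (limma adjusted p = 0.0656). With a minimum of 5 FPKM, Pgam2 was not tested.

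Glucose carriers, regulators and the pyruvate gate held 0 changed genes. Of 8 tested transporters, 3 had a difference above 0 and 5 below, with a median of -0.02. Slc2a1, the main glucose carrier of many embryonic cells, was at 19.8 ± 1.18 FPKM in mutants and 19.9 ± 2.54 FPKM in controls. Slc2a3, another glucose carrier, was at 2.73, 3.32, 3.30 and 3.33 FPKM in mutants and at 2.68, 2.45 and 2.55 FPKM in controls, and the groups did not overlap (log2 difference 0.23, SE 0.08; limma adjusted p = 0.262). Slc16a1, a lactate and pyruvate carrier, was at 18.03, 15.9, 17.2 and 15.9 FPKM in mutants and at 19.2, 20.4 and 18.7 FPKM in controls, again apart (-0.20, SE 0.07, limma adjusted p = 0.205). Slc2a2, also a glucose carrier, was lower in every mutant (2.04 to 3.51 FPKM) than in every control (3.59 to 4.65 FPKM). Its log2 difference was -0.36 (SE 0.15, limma adjusted p = 0.309). Of the 8 transporters, 3 had groups that did not overlap, against 14.5% of all genes tested.

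All 5 tested regulators of phosphofructokinase lay within -0.11 and 0.05, among them Pfkfb3 (log2 difference 0.05, SE 0.10; limma adjusted p = 0.899) and Tigar (-0.11, SE 0.07; limma adjusted p = 0.629). Of 12 genes around the entry of pyruvate into mitochondria, 2 had a difference above 0 and 10 below, with a median of -0.08. The list mixes subunits of pyruvate dehydrogenase with kinases that inhibit it, so the median gives no direction of pyruvate entry. Dlat, a core subunit of pyruvate dehydrogenase, was at 17.7 ± 2.25 FPKM in mutants and 21.4 ± 1.21 FPKM in controls (-0.27, SE 0.10; limma adjusted p = 0.248). Pdk2, a kinase that inhibits that enzyme, was at 13.1 ± 1.60 FPKM in mutants and 15.1 ± 0.647 FPKM in controls (-0.19, SE 0.09; limma adjusted p = 0.402).

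Gluconeogenesis, the reverse route used by the proximal tubule, had the lowest median of the lists, -0.48 over 7 tested genes. By limma 0 of the 7 changed, with 4 at an unadjusted p under 0.05; limma-voom called 2 lower, and 4 are lower in the authors' deposited table. Fbp2, a fructose bisphosphatase, was at 2.89, 2.28, 1.08 and 1.98 FPKM in mutants and at 4.17, 5.34 and 4.33 FPKM in controls (log2 difference -0.91, SE 0.19; limma adjusted p = 0.0694). Pcx, pyruvate carboxylase, was at 7.40, 6.04, 6.99 and 6.27 FPKM in mutants and at 10.3, 10.6 and 8.27 FPKM in controls (-0.48, SE 0.10; limma adjusted p = 0.0617). For both genes every mutant was below every control, as for 8.61% of all genes tested.

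The 4 genes that the authors' deposited table gives as lower were Pcx, Fbp2, Fbp1 and Pck1, named after their values were seen, with deposited log2 fold changes of -0.54, -1.16, -1.69 and -1.02 and deposited adjusted p of 0.000718, 0.00232, 0.000211 and 0.0250. Fbp1 encodes the fructose bisphosphatase of liver and kidney and Pck1 the cytosolic enzyme that makes phosphoenolpyruvate. The proximal tubule marker sums given above were also lower in mutants (26.2 to 57.1 FPKM in mutants and 78.7 to 95.01 FPKM in controls). Their part in the values of these genes was not tested. Of 8 pentose phosphate genes 0 changed by limma, with a median of 0.05; G6pdx, which opens that branch, was at 19.0 ± 0.546 FPKM in mutants and 17.8 ± 0.356 FPKM in controls (0.09, SE 0.06; limma adjusted p = 0.549). Pgls, its lactonase, was at 29.7, 13.8, 22.1 and 22.1 FPKM in mutants and at 32.2, 38.1 and 38.4 FPKM in controls (-0.74, SE 0.22; limma adjusted p = 0.171; adjusted p = 0.0113 in the authors' deposited table).

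Many core enzymes are textbook targets of hypoxia-inducible factors, so other targets were read beside them. Of 16 tested hypoxia-induced genes outside glycolysis, 1 fell, 0 rose and 15 did not pass, with a median of -0.03. Of these 16, 6 had an unadjusted limma p under 0.05, against 13.7% of all genes tested, with 4 differences above 0 and 2 below. The authors' deposited table calls 1 higher (Adm) and 1 lower (Vegfa), and 5.49% of all its genes with a p. Adm, the vasodilator peptide adrenomedullin, was at 3.67, 3.11, 3.11 and 2.99 FPKM in mutants and at 2.23, 2.38 and 1.82 FPKM in controls. Every mutant was above every control for Adm, and limma did not call it (log2 difference 0.42, SE 0.09; limma adjusted p = 0.0720; adjusted p = 0.0289 in the authors' deposited table). P4ha2, a collagen prolyl hydroxylase subunit, was at 5.46, 5.13, 6.39 and 5.16 FPKM in mutants and at 4.57, 3.96 and 4.41 FPKM in controls, also without overlap (0.30, SE 0.09; limma adjusted p = 0.157). Vegfa, the angiogenic growth factor, was at 25.3, 24.6, 24.0 and 24.3 FPKM in mutants and at 30.7, 28.8 and 30.9 FPKM in controls, with all mutants below all controls (log2 fold change -0.28, SE 0.06; limma adjusted p = 0.0495). Vegfa is also made by podocytes, whose 7 markers summed to 117 to 137 FPKM in mutants and 182 to 198 FPKM in controls and of which 4 fell; their part was not tested. The Vegfa call was lost without each library except mutant 1 (limma adjusted p = 0.0919 to 0.203) and with 7 of 10 other settings, among them limma-voom (adjusted p = 0.0505).

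Of 16 tested regulators of glycolysis, 0 changed, with a median of -0.03. An unadjusted limma p under 0.05 was found for 6 of them, against 13.7% of all genes tested. Hif1a was at 37.7 ± 2.99 FPKM in mutants and 36.1 ± 1.60 FPKM in controls. Mycn, a growth regulator of nephron progenitors, was at 19.5, 13.6, 17.3 and 20.9 FPKM in mutants and at 22.7, 23.8 and 25.6 FPKM in controls (-0.43, SE 0.13; limma adjusted p = 0.163; adjusted p = 0.0490 in the authors' deposited table). Myc was at 24.6 ± 1.39 FPKM in mutants and 29.3 ± 1.74 FPKM in controls (-0.24, SE 0.07; limma adjusted p = 0.135). Every mutant lay below every control for both genes, as for 8.61% of all genes tested. The nephron progenitor marker sums given above were lower as well, and their part was not tested.

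**Figure D5:**
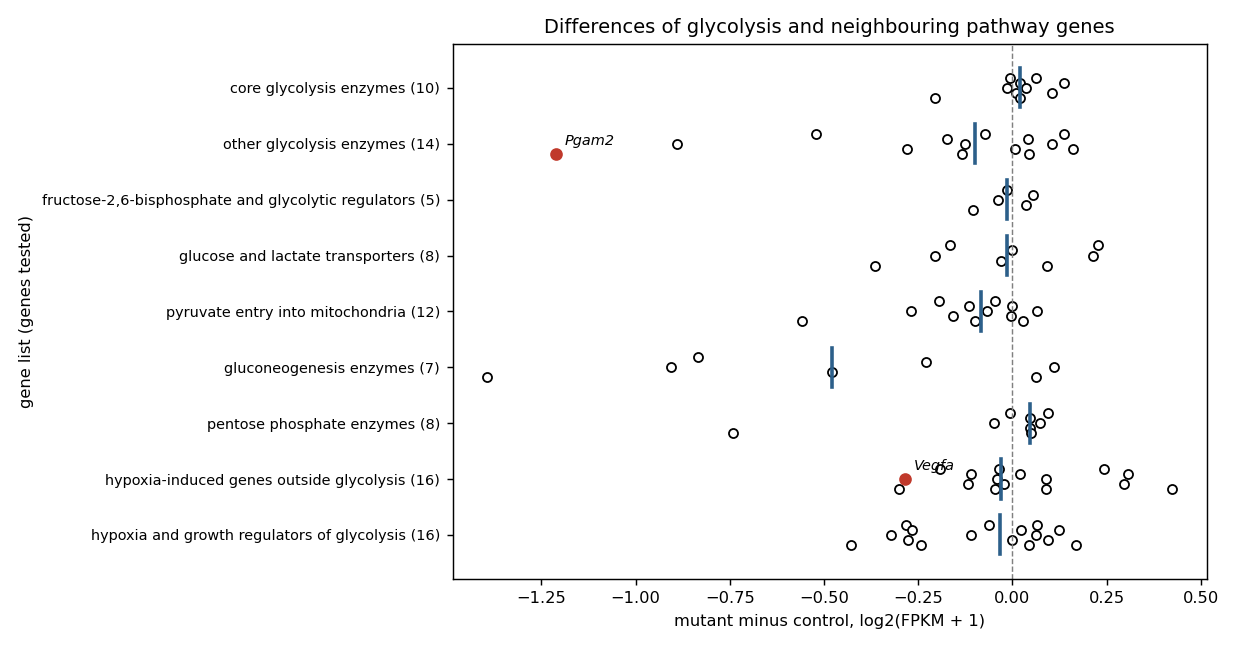
Mutant minus control difference on the log2(FPKM + 1) scale (horizontal axis) of each tested gene, by list (vertical axis, number of genes tested in brackets); filled red points passed limma's threshold and blue bars are list medians. The 10 core enzymes lie between -0.21 and 0.14 with a median of 0.02, the gluconeogenesis genes have a median of -0.48, and Pgam2 and Vegfa are the 2 genes that passed.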

How the data were processed

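Kidney RNA of 4 mutant and 3 control samples was compared, with groups taken from the sample titles. The authors deposited 1 table of 16167 genes. Per the file headers, it holds FPKM for each library beside a DESeq2 result: the mean normalized count, which is a signal, the log2 fold change, its error and the test statistic, both of which are scores, and the p-value before and after adjustment. Per the submitters' processing notes, the build was mm39 and the tools included STAR 2.6.0c and HTSeq 0.6.1p2. The kit was a directional one per the labels, while the strand setting of the counting and the gene length behind FPKM are not given in the sources used here.

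The 13466 genes with 1 FPKM or more in 3 libraries or more, all 10 enzymes among them, were tested two-sided by limma 3.58.1 in R 4.3.3. The fit used log2(FPKM + 1), a robust variance trend and Benjamini-Hochberg adjustment over every gene tested. Reads per gene were recovered from the deposited signal, FPKM and a size factor per library; 100% of values lay within 0.05 of a whole number. Isoenzyme ratios were compared by two-sided exact permutation over 35 splits. The result of 1 of the 6 ratios is not reported here. The fit was tested on simulated data.

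The text names the 10 enzymes, genes of a pathway list that passed (otherwise the pair with the smallest p), genes of the ratios, the 5 genes most like the enzymes, and both targeted genes. Genes given to complete a step or a list (Gapdh, Tpi1, Pgam1, Slc2a1, Slc2a2, Hif1a, Fbp1, Pck1, Adm, P4ha2, Eno1b, Mpc2) were chosen after their values were seen. Enzymes and lists were chosen with earlier results of these data known. Alternatives changed the pseudocount (0.1), the filter (none, or 5 FPKM), the scaling (quantile, median of ratios), the library weights, the replicate block, the test (limma-voom on recovered reads, or the authors' deposited one), a globin covariate for stage (Hbb-y over Hbb-bs), and the libraries, each left out once.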

Additional observations from a re-analysis of the deposited data

Results flagged for a closer look

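Among 42 mutant groups examined, 3 held a library far from the other mutants, where chance gives about 1 in 20. Pgk1 was at 219.7 FPKM in mutant 1, against 208 to 209 FPKM in mutants 2 to 4. Slc2a3 was at 2.73 FPKM in mutant 1, below the other mutants at 3.30 to 3.33 FPKM and near the controls at 2.45 to 2.68 FPKM. The log2 ratio of Aldoc to Aldoa was -8.35 in mutant 4, against -7.54 to -7.48 in mutants 1 to 3.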

How the results depend on the processing

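Of the core enzymes, 0 were called in each of the 17 settings tried, 7 of which leave out a library; Pfkp was not tested with a minimum of 5 FPKM. Pfkp, Eno1 and Pkm kept their direction in every setting that tested them. No setting joined Eno1 with Eno1b, described below, with which it could share reads. Eno1b went the other way, averaging 42.1 FPKM in mutants and 56.5 FPKM in controls, with overlap. Over all genes, 206 were called as reported, 1302 with array weights, 60 with a minimum of 5 FPKM, 109 with a pseudocount of 0.1, 886 in the authors' deposited table, and 11 to 486 with 1 library left out. Of the pathway list genes, 2 were called as reported, 17 with array weights, 5 with the globin covariate, 1 without a filter, 1 with quantile normalization, 0 with a minimum of 5 FPKM or a pseudocount of 0.1, 9 in the authors' deposited table, and 0 to 7 with 1 library left out. With the replicate block, 2 genes in all and 0 pathway list genes were called, and mutant 4 has no partner. Same-numbered libraries had deviations correlated at r = -0.156, 0.0276 and 0.0980, against -0.253 to 0.141 for differently numbered ones. These values cannot decide whether same-numbered libraries share a litter. Under the block, Irx3, Pgam2 and Vegfa missed the threshold (limma adjusted p = 0.0974, 0.0528 and 0.290).

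The sign of the log2 difference turned for Hk1 with quantile normalization (0.014) and the replicate block (0.014), for Hk2 with array weights (0.057) and quantile normalization (0.023), and for Gpi1 with array weights (-0.019). It turned for Pfkl with the globin covariate (-0.016), for Aldoa with array weights (-0.055), and for Pgk1 with array weights (-0.019) and quantile normalization (-0.015). With the globin covariate it turned for the second Aldoa identifier (-0.043), Pfkm (-0.012), Gm6421 (-0.0073) and Gm4332 (-0.00056), with array weights for Gm6421 (-0.00057), and with the block for Mta1 (0.0030). For Irx5 it turned with array weights (0.058), the globin covariate (0.016), quantile normalization (0.031) and in the authors' deposited table (0.029). None of these values passed, and the cause was not tested. With 1 library left out, the log2 differences ranged from -0.036 to 0.039 for Hk1, -0.11 to 0.074 for Hk2, -0.019 to 0.036 for Gpi1, -0.079 to 0.22 for Pfkl, -0.047 to 0.056 for Aldoa, -0.075 to 0.082 for Pgk1, -0.057 to 0.11 for Ldha, and -0.068 to 0.12 for the second Aldoa identifier. They ranged from -0.062 to 0.045 for Pfkm, -0.058 to 0.13 for Gm6421, -0.030 to 0.034 for Mta1, -0.093 to 0.26 for Gm4332, -0.071 to 0.14 for 1110038F14Rik, -0.051 to 0.17 for Eef1g, and -0.12 to 0.11 for Irx5. The log2 ratio of Hk2 to Hk1 ranged from -0.093 to 0.11 and that of Pfkm to Pfkl from -0.18 to 0.12. Depth limits the low genes most: Pfkp had 682 to 1436 reads in a library, and Pgam2 28 to 340.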

Other observations

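Eno1b, an enolase retrogene close in sequence to Eno1 and named here after its values were seen, was at 60.2, 24.0, 58.0 and 26.4 FPKM in mutants 1 to 4 and at 46.7, 55.6 and 67.1 FPKM in controls 1 to 3. Mutants 2 and 4 were apart from the other 5 libraries, while Eno1 was at 206 and 222 FPKM in them. Counting that cannot tell the copies apart could split reads between them. Mpc2, a subunit of the mitochondrial pyruvate carrier, was also named after its values were seen and was at 60.1, 24.6, 30.7 and 46.9 FPKM in mutants and at 49.6, 60.5 and 61.0 FPKM in controls (log2 difference -0.56, SE 0.29; limma adjusted p = 0.497).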
